A study of Homo sapiens with 3 samples.

Results

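The genes described here are among those whose introns held the most binding clusters of MATR3, a nuclear RNA-binding protein, in HAP1 cells. They were chosen by the number of intronic clusters assigned to them in the wild-type (WT) libraries, 50 or more in WT replicate 1 and 20 or more in WT replicate 2. Of 8206 genes with an intronic cluster in either WT library, 86 reached both numbers, or 1.05%. After 12 of these were left out by name, HDAC9, SND1, GPC3, ADGRV1 and MATR3 itself among them, 74 genes remained. The highest numbers over all genes were 171 in WT replicate 1 and 104 in replicate 2, against 147 and 64 within the 74. The rule also leaves out all names that start with CHD, KDM, KMT, SMARC, ARID or RBM, families of chromatin and RNA-binding proteins, so that ARID1A and ARID1B, for example, are not included. Since the cluster numbers chose the genes, these numbers are a description and carry no test. The threshold in WT replicate 1 alone was met by 134 genes and that in WT replicate 2 alone by 104, with the same names left out.

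PAR-CLIP crosslinks proteins to RNA through a photoactivatable nucleoside, and contact sites show as T-to-C changes in the reads. The groups were 2 libraries of wild-type HAP1, a near-haploid line derived from the chronic myeloid leukaemia line KBM-7, and 1 library of a purchased MATR3 knockout (KO) line of the same cells, which serves as the background. The labels give no other treatment, no tag on MATR3 although anti-FLAG beads were used, and no statement that the WT libraries came from separate cultures. With 2 libraries against 1, no permutation can give a p-value below 0.333, so no test between genotypes was run. The libraries differed in size: WT replicate 1 held 87230 clusters, WT replicate 2 27155 and KO 842, of which 73317, 22569 and 540 were intronic. The sequencing depth is not known from cluster tables, and the weakest cluster in each library had 5 reads. MATR3 had 53, 26 and 0 clusters in the same order, and clusters measure neither protein nor transcript level, so the cell line was not checked against markers.

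MATR3 carries RNA recognition motifs and zinc fingers and is known to bind pyrimidine-rich stretches of introns and to influence splicing, in part with the polypyrimidine tract-binding protein PTBP1. Introns are removed from the transcript as it is made, so a long gene presents much intronic RNA in the nucleus. A count of clusters per gene therefore reflects gene length and transcription as well as binding, and these could not be separated from the tables.

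The sequences show which stretches of RNA the clusters cover. For the 8 genes with the highest geometric mean of intronic clusters, the pair of overlapping WT clusters with the most reads is shown, cut to the stretch that both libraries share, 5′ to 3′ on the transcript. Positions are those of the deposited tables, for which the submitters' processing notes name hg38. Capitals mark runs of at least 5 pyrimidines (C or T). The tables call each of these sites intronic.
TTC28 (chr22:28410730-28410761, minus strand): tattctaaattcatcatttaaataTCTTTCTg
AUTS2 (chr7:70334571-70334604, plus strand): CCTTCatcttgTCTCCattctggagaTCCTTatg
DLGAP1 (chr18:4434914-4434953, minus strand): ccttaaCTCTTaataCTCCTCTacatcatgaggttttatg
CMSS1 (chr3:99890502-99890538, plus strand): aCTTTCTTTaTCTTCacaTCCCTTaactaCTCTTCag
PPFIA2 (chr12:81645233-81645268, minus strand): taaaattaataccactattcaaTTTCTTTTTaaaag
POLA1 (chrX:24765028-24765058, plus strand): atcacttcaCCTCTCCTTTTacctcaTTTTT
GPHN (chr14:66539885-66539918, plus strand): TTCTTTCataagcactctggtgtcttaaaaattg
DYRK1A (chr21:37391629-37391661, plus strand): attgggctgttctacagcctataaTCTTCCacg
The CMSS1 site held 93 reads in WT replicate 1 and 341 in replicate 2, and T and C made up 75.7% of its bases. The POLA1 site had 229 and 232 reads, with 83.9% T and C and a run of 11 pyrimidines. The DYRK1A site had 472 and 120 reads and was the least pyrimidine-rich of the 8 after PPFIA2 and GPHN, at 60.6%. The percentage of reads carrying a conversion differed between libraries at some of these sites. At the DLGAP1 site it was 66.7% in WT replicate 1 and 13.2% in replicate 2, whereas at the AUTS2 site it was 92.0% and 96.5%.

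Outside these, 4 members with among the deepest shared sites, picked after their values were seen, were E2F3, PRRC2C, HDLBP and PDGFC.
E2F3 (chr6:20407642-20407674, plus strand): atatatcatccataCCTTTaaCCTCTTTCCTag
PRRC2C (chr1:171527976-171528009, plus strand): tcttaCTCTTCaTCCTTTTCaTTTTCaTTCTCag
HDLBP (chr2:241244085-241244122, minus strand): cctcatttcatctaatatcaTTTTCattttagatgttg
PDGFC (chr4:156936549-156936582, minus strand): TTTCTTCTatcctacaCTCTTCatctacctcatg
The E2F3 site had 660 reads in WT replicate 1 and 264 in replicate 2. The PRRC2C site had 551 and 246 reads, with T and C making up 82.4% of its bases. In all 4, the shared stretch started at the same base in both libraries or ended at it. Runs of at least 5 pyrimidines were common to intronic clusters in general: 92.04% of the clusters of the 74 genes in WT replicate 1 and 91.9% in replicate 2 held one, against 91.5% and 92.03% of the intronic clusters of other genes. In the KO library the shares were 68.9% in the 74 genes and 69.3% elsewhere.

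The 74 genes held 5425 intronic clusters in WT replicate 1 and 2142 in replicate 2, and the KO library had 45. PPFIA2, which encodes a liprin scaffold of synapses, had the highest number in WT replicate 1, at 147, with 35 in WT replicate 2 and 0 in KO. TTC28, a protein with tetratricopeptide repeats, led the geometric mean with 143 and 56 clusters and 1 in KO. AUTS2, a regulator of transcription in developing neurons, had 120 and 64, the latter being the highest of the 74 genes in WT replicate 2, with 1 intronic cluster in KO. DLGAP1, a scaffold of the postsynaptic density, had 129 and 47, CMSS1, a ribosomal small subunit protein homologue, 107 and 49, and GPHN, the receptor anchor gephyrin, 130 and 30; none of the 3 had a KO cluster. POLA1, the catalytic subunit of DNA polymerase alpha, had 98, 49 and 2. DYRK1A, a dual-specificity kinase, had 107, 36 and 4, the most KO clusters of any of the 74. MLLT10, a partner of leukaemia fusions that binds histone H3, had 82, 45 and 1, and PARD3, a polarity scaffold, 105, 31 and 2. In each of the 74 genes WT replicate 1 held more intronic clusters than WT replicate 2, and both held more than KO.

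**Figure D1:**
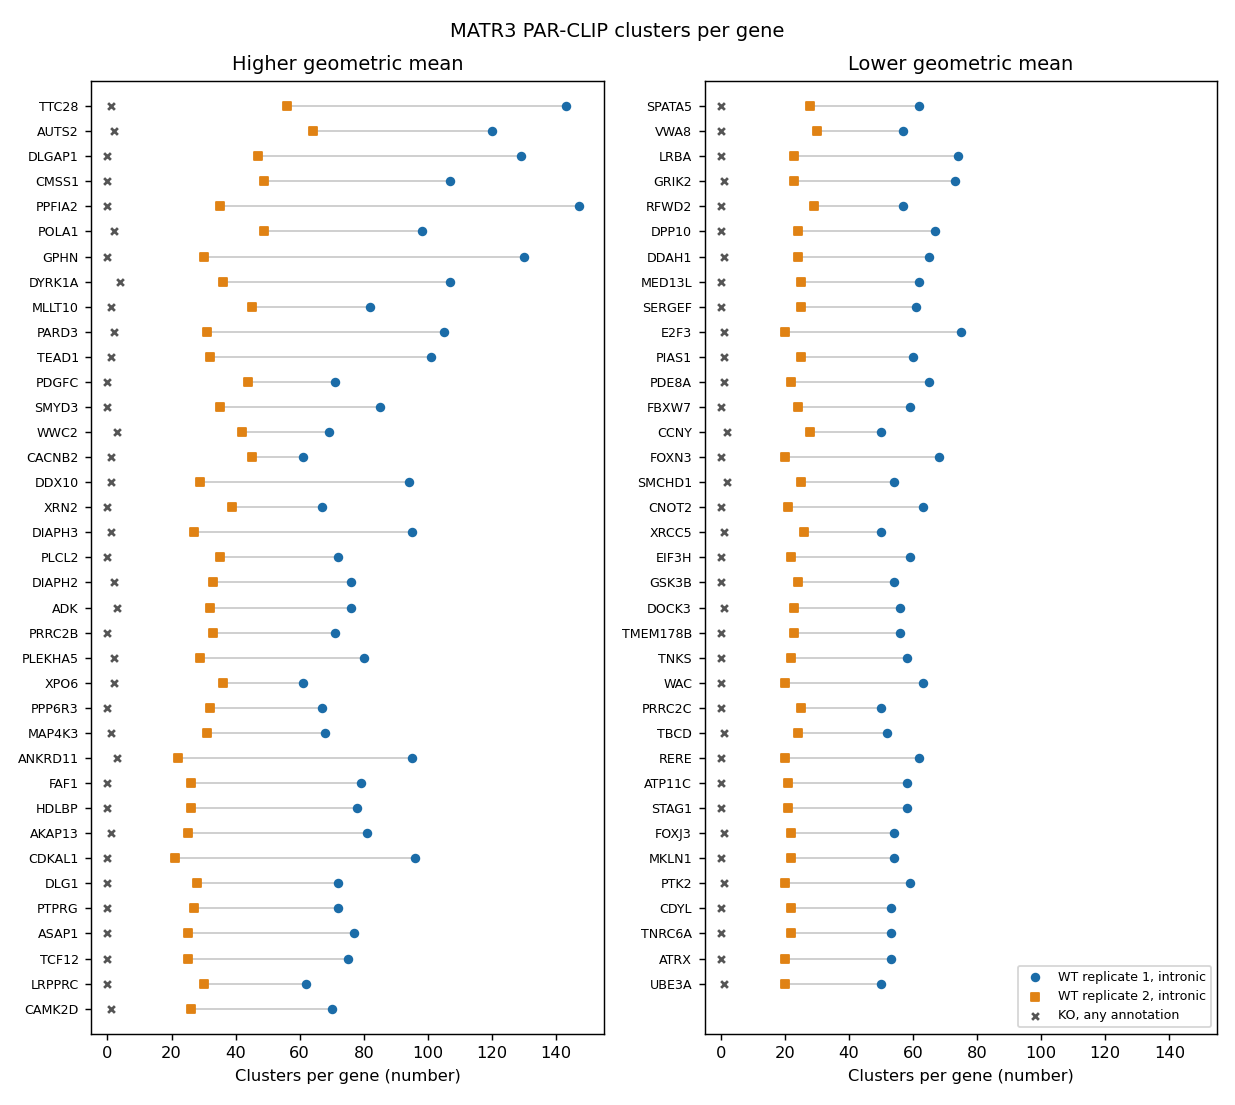
Number of clusters per gene for the 74 genes but 1, in order of the geometric mean over the WT libraries; circles are intronic clusters of WT replicate 1, squares those of WT replicate 2, and crosses KO clusters of any annotation. The WT replicate 1 values run from 50 to 147 and those of WT replicate 2 from 20 to 64, while no gene has more than 4 KO clusters.

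Values near the thresholds were close together. UBE3A, the ubiquitin ligase of Angelman syndrome, sat on both limits with 50 and 20 clusters, and PRRC2C (50 and 25) and XRCC5 (50 and 26) sat on that of WT replicate 1. Just outside were HSD17B12 with 48 and 29, and APP and DIP2B with 48 and 22 each. On the side of WT replicate 2, E2F3 (75 and 20), FOXN3 (68 and 20) and WAC (63 and 20) were inside, while UCK2 (76 and 19), VCL (67 and 19) and RPTOR (65 and 19) were among 11 genes that missed it by 1 cluster.

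The ratio between the WT libraries was not the same in all genes. Over all intronic clusters WT replicate 1 held 3.25 times as many as WT replicate 2, and over the 74 genes, which had to reach a number in each, 2.53 times. CDKAL1, an enzyme that modifies tRNA, had 96 and 21 clusters, a ratio of 4.57. GPHN followed at 4.33 and ANKRD11, a chromatin co-regulator, at 4.32, with 95 and 22 clusters. At the other end were CACNB2, a subunit of voltage-gated calcium channels, with 61 and 45 (1.36), PDGFC, a growth factor, with 71 and 44 (1.61), and WWC2, a protein of the Hippo pathway, with 69 and 42 (1.64).

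By role, sorted by hand after the names were known, the 74 genes fell into 8 groups. The group sizes were not set against all genes, and the names left out by the rule lower those of chromatin and RNA. Transcription and chromatin had 17 genes, among them TEAD1, TCF12, ATRX and E2F3, with a median of 63 intronic clusters in WT replicate 1 and 22 in replicate 2. Kinases, phosphatases and other signalling proteins made up 14 genes, such as DYRK1A, GSK3B and the receptor phosphatase gene PTPRG, with medians of 68.5 and 27.5. RNA processing, decay and translation had 12, with medians of 65 and 27.5. These include the nuclear exonuclease gene XRN2, the deadenylase subunit gene CNOT2 and TNRC6A, a partner of Argonaute. Cytoskeleton, polarity and transport had 11, synapse, channels and membrane 8, the ubiquitin pathway 5, metabolism and other functions 5, and DNA replication and repair 2, namely POLA1 and XRCC5, the Ku80 gene. Median cluster numbers in WT replicate 1 lay between 57 and 74 in all 8 groups.

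The gene lists give the families beside these members. Of all genes with an intronic WT cluster the median was 4 in WT replicate 1 and 1 in replicate 2, and 0.902% were members. Of 13 formins, actin-nucleating proteins, 8 had a cluster, with medians of 39.5 and 10, and DIAPH3 (95 and 27) and DIAPH2 (76 and 33) were members. Of 19 MAGUK and polarity scaffolds 15 had a cluster, with medians of 12 and 5, and PARD3 and DLG1 (72 and 28) were members. Developmental transcription factors had medians of 21 and 6.5 over 24 of 26 genes, with TEAD1 (101 and 32) and TCF12 (75 and 25) as members. FOXP1 from that list had 75 clusters in WT replicate 1 and 7 in replicate 2, and so was not one. Of 20 genes at common fragile sites, very long genes prone to breakage, 17 had a cluster, with medians of 12 and 3, and AUTS2 and PTPRG (72 and 27) were members. FHIT, with 29 and 4, and WWOX, with 8 and 3, were not. LRBA (74 and 23) was the one member among 10 VPS13 and BEACH proteins with a cluster, DOCK3 (56 and 23) among 9 DOCK exchange factors, PTPRG among 10 receptor phosphatases and UBE3A among 18 HECT ubiquitin ligases. The lists of exocyst subunits (8 with a cluster), protein kinase C isoforms (6) and axon guidance genes (10) held no member, although the exocyst gene EXOC4 came near with 73 and 18.

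Length sets these numbers in proportion. RefSeq intervals of the 74 genes had a median of 272 kb and reached 1403 kb in DPP10, against a median of 51.8 kb over the 8150 genes with a cluster and a known length. Of the 216 genes of at least 500 kb, 16 were members, or 7.41%, and of the 5791 genes under 100 kb, 6 were, or 0.104%. Most very long genes did not reach the thresholds. Per 100 kb of gene the members had a median of 25.3 intronic clusters in WT replicate 1 and 9.92 in replicate 2, a mean of 17.6 ± 10.9 (SD, n = 2). The medians over all genes were 8.95 and 1.85, and over genes of at least 200 kb 4.18 and 1.08. The rule used these counts, so the gap in density is a description. Such densities were not particular to the 74. Of all genes, the 74 included, 16.8% lay above the member median in WT replicate 1 and 10.8% in replicate 2.

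Density differed between the members. The rule cut off low cluster numbers but left gene length free, so the spread of density is only described. HDLBP, which encodes the RNA-binding protein vigilin, had 88.3 clusters per 100 kb in WT replicate 1 and 29.4 in replicate 2, in a gene of 88.4 kb. XRN2 had 77.5 and 45.1, E2F3, a cell cycle transcription factor, 81.7 and 21.8, and WAC, a regulator of histone H2B ubiquitination, 69.7 and 22.1. These genes were among the densest by the mean of the WT libraries. The sparsest were DPP10, a potassium channel auxiliary protein, with 4.78 and 1.71, DOCK3 with 7.90 and 3.24 and DIAPH2 with 8.26 and 3.59. The group of RNA processing, decay and translation had a median of 51.8 in WT replicate 1 and 20.95 in replicate 2, with a median length of 118 kb. The group of synapse, channels and membrane had 13.1 and 5.08, with a median length of 589 kb. RefSeq intervals can include distant alternative starts or ends: the clusters of GPHN spanned 649.5 kb of 1227 kb, those of DPP10 657 kb, and those of MKLN1 150 kb of 387 kb.

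**Figure D2:**
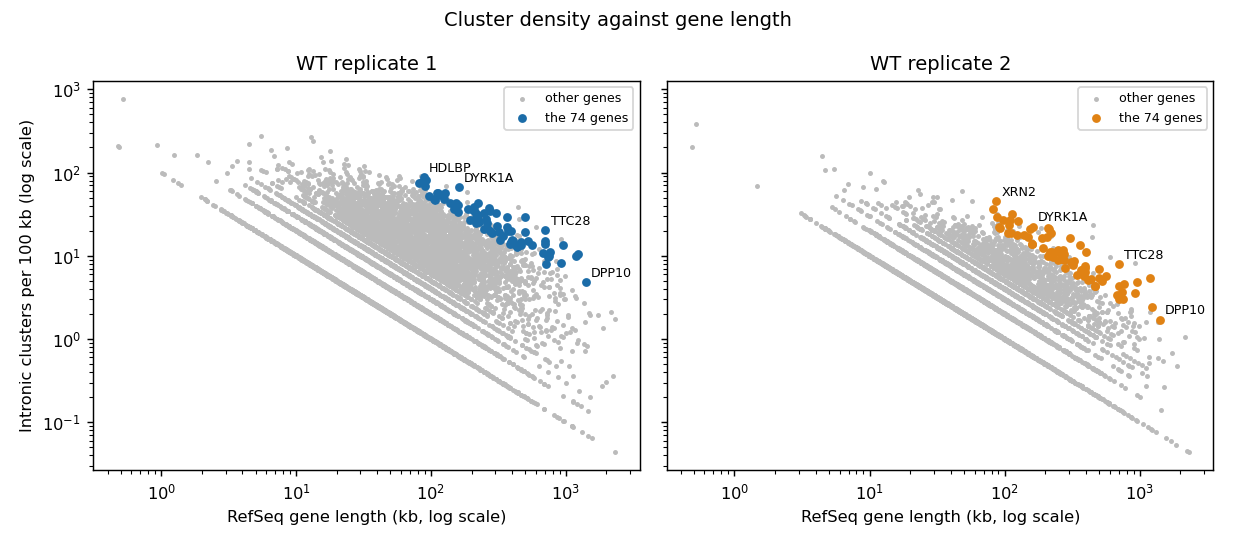
Intronic clusters per 100 kb against RefSeq gene length, both on log scales, one point per gene with a cluster in that library; coloured points are the 74 genes and grey points all others. The 74 genes lie along the upper edge of the cloud, from HDLBP and XRN2 at under 100 kb to DPP10 at 1403 kb.

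How close the clusters lay differed between the genes. The richest 10 kb window, with both WT libraries counted together, held between 7 (DIAPH2 and DOCK3) and 34 clusters (reached in DYRK1A), with a median of 15. In PRRC2C this window contained 37.3% of all its clusters, in LRPPRC, a mitochondrial RNA-binding protein gene, 35.9% and in TNRC6A 34.7%. In AUTS2, one of the longest, it contained 4.89%. A richest window exceeds the average by construction, its share falls with gene length, and a site found in both libraries counts in each. Neighbouring clusters lay a median of 1.28 kb apart in WT replicate 1 and 4.09 kb apart in WT replicate 2, as the median over genes.

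Along the gene, clusters were more frequent near the 5′ end. In the 74 genes, 31.02% of the intronic clusters of WT replicate 1 and 29.1% of those of WT replicate 2 lay in the first 20% of the RefSeq interval, and 10.7% and 10.2% in the last 20%. Position along the gene was not used by the rule. The decline was seen in other genes too: in other genes of at least 200 kb the first 20% held 28.2% and 29.9%, and the last 20% held 12.7% and 10.1%. The order of the 74 and the other long genes thus differed between the WT libraries in both windows. In 55 of the 74 genes the median position lay before the middle in both WT libraries, in 9 it lay beyond the middle in both, and in 10 the libraries differed. The same count over other genes is not given here, so these numbers only describe the 74. DLGAP1 had 55.8% and 66.0% of its clusters in the first 20%, GPHN 59.2% and 73.3%. Such values depend on the RefSeq interval, and the clusters of GPHN spanned only 649.5 kb of its 1227 kb. In MKLN1, TNRC6A, DPP10, CCNY and CDYL no cluster lay in the first 20% of the RefSeq interval in either WT library. The clusters of TNRC6A spanned 89.9 kb of 216 kb. In ATRX, a chromatin remodeller gene, the median lay at 60.5% and 72.1% of the gene.

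**Figure D3:**
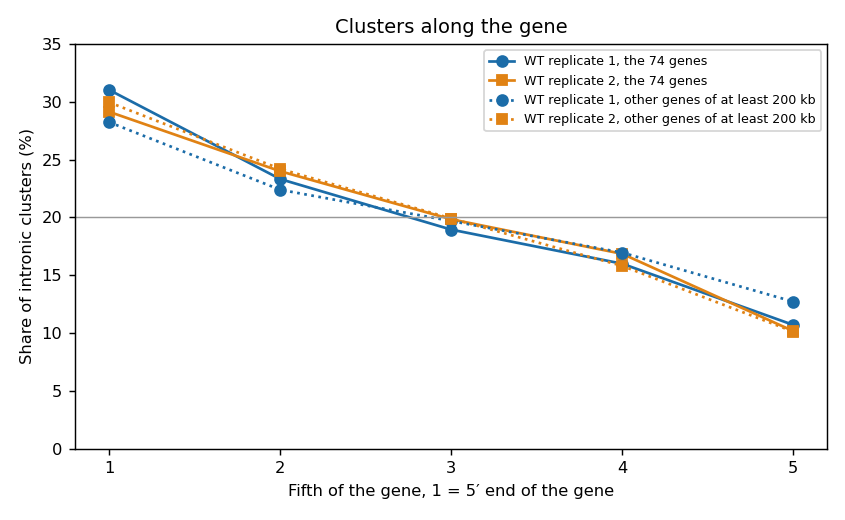
Share of intronic clusters in each 20% of the gene, numbered 1 to 5 from the 5′ end, for the 74 genes (solid lines) and other genes of at least 200 kb (dotted lines) in each WT library; the grey line marks an even spread of 20%. All 4 lines fall from about 30% at the 5′ end to about 10% at the 3′ end.

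Nearly all clusters of the 74 genes were intronic, which the choice by intronic clusters favours. Of 5482 clusters in WT replicate 1, 57 had another annotation, and of 2171 in WT replicate 2, 29 had. Of these, 48 and 25 lay in 3' UTRs. A 3' UTR cluster was found in both WT libraries in 9 of the 74 genes, or 12.2%, against 4.45% of all genes with an intronic WT cluster. Most of those genes hold far fewer clusters, with medians of 4 and 1 intronic clusters in the WT libraries. Genes of like cluster number were not set beside the 74, so nothing is read from this difference. TEAD1, the DNA-binding partner of YAP, had 8 and 5, PRRC2B 9 and 2, UBE3A 5 and 3, and RERE, a nuclear receptor co-regulator, 5 and 2. In KO, 5 of 50 clusters in the 74 genes were not intronic, 3 of them in 3' UTRs.

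Whether the libraries agreed on positions was not used by the rule, though dense genes meet more often by position alone. Of the 2142 intronic clusters of WT replicate 2 in the 74 genes, 500, or 23.3%, met a cluster of WT replicate 1 on their strand (95% Wilson interval 21.6 to 25.2%). In other genes the share was 19.9% (19.4 to 20.5%). After a shift by 1000 nt either way, the shares were 4.295% and 3.13%, so the observed share was 5.43 times that level in the 74 genes and 6.38 times in the others. The higher raw share thus came with a higher level by position alone. With at least 3 converted positions per cluster the order turned, with 24.4% in the 74 genes and 25.4% elsewhere. By clusters per gene in WT replicate 1, the share was 10.2% with 1 to 4, 22.3% with 20 to 49 and 27.6% in the other genes with 50 or more, where the shift left 4.32%. The latter, the genes nearest to the 74 in number, had the higher share. This share is taken over clusters of WT replicate 2, whose number the rule limits from below in the 74 genes. Nothing is therefore read from this order. Each of the 74 genes had at least 1 such overlap, against 41.7% of all genes with an intronic cluster in WT replicate 2; since the rule asks for 20 clusters there, nothing is read from this.

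The share differed between members. In WAC 13 of the 20 clusters of WT replicate 2 were shared (65%) and in CNOT2 12 of 21 (57.1%), with 7.5% and 9.52% after the shift. In PTK2, the focal adhesion kinase gene, and in ATRX 1 of 20 was shared. In TTC28, the gene that led the geometric mean, 8 of 56 were shared, and in AUTS2 5 of 64. The observed share exceeded the shifted one in all 74 genes, which in PTK2 and ATRX rests on 1 shared cluster. The same count over other genes is not given here, and the rule asks for 20 clusters in WT replicate 2. Nothing particular to the 74 is therefore read from it. Clusters with the most reads were shared more often than those with the fewest. For member clusters of WT replicate 2 with 5 to 9 reads the share was 6.90% (4.60 to 10.2%). With 200 or more reads it was 44.4% (32.0 to 57.6%), over 54 clusters. The share did not rise at each step, with 26.4% at 20 to 49 reads and 23.3% at 50 to 99. There were 502 overlapping pairs within the same gene, with a median shared stretch of 30 nt, and 156 had the same start and end in both libraries.

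**Figure D4:**
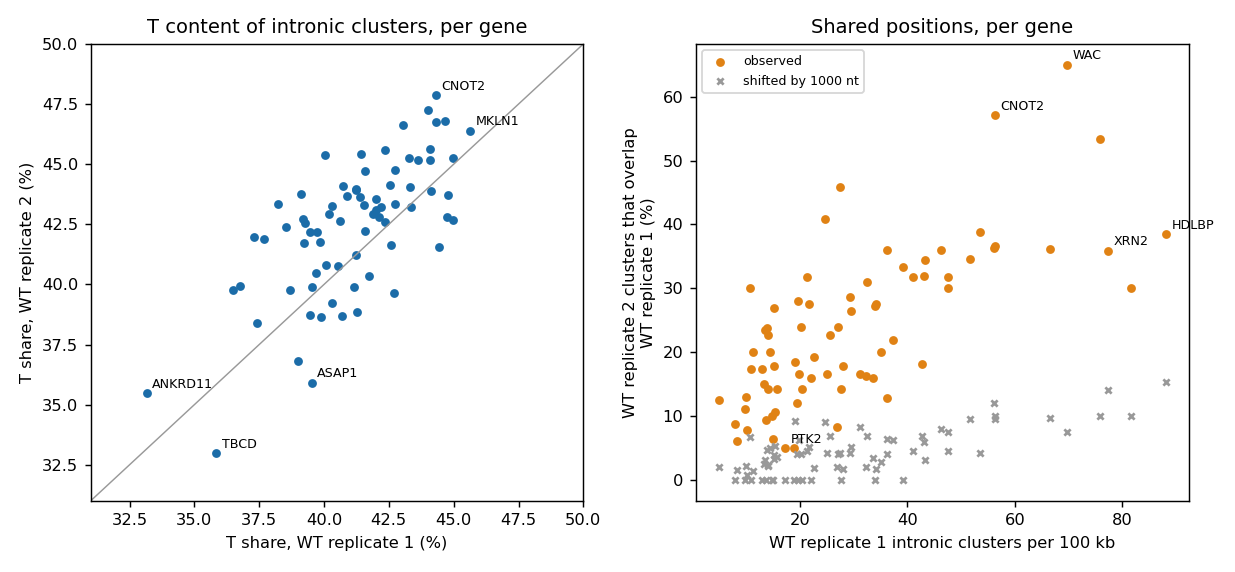
Left, T share of the intronic cluster sequences of each of the 74 genes in WT replicate 2 against WT replicate 1, with the line of equal values. Right, share of WT replicate 2 clusters that overlap a WT replicate 1 cluster, per gene, against the density in WT replicate 1; circles are observed and crosses are after a shift by 1000 nt, and the highest circle is WAC at 65%.

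The clusters of the 74 genes were close in depth and sequence to those of other genes, by measures that the rule did not use. The median intronic cluster had 22 reads in WT replicate 1 and 35 in replicate 2, against 20 and 39 in other genes, so the direction differed between the WT libraries. Depth is counted in reads throughout, repeats of the same sequence included. The median cluster held only 3 distinct read sequences in either WT library, within the 74 genes and outside them. Reads per distinct sequence differed by library: KO had 30.7, the second WT library 17.9 and the first 7.58. Read numbers of different libraries are thus not on 1 scale, and they do not measure depth of binding. The deepest cluster held between 3.34% (PARD3) and 19.96% (E2F3) of a gene's intronic cluster reads in WT replicate 1. The deepest clusters of any member lay in LRPPRC, with 753 reads in WT replicate 1 and 498 in replicate 2. Of the T events read, 7.79% were converted in the 74 genes and 8.05% in others in WT replicate 1, and 7.46% and 7.81% in WT replicate 2. The mean over the WT libraries was 7.63 ± 0.235% in the 74 genes (SD, n = 2) and 7.93% in others. The share was lower in the 74 genes within each WT library, and in KO it was 9.86% against 10.6%. The difference was not tested, since T events of a cluster are not independent.

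T made up 41.04% of the bases of member clusters in WT replicate 1 and 42.3% in replicate 2. In other genes it was 40.3% and 42.1%. The share in the 74 genes was the higher in both, which was not tested. The pentamer TTCTT occurred 13.3 times per 1000 pentamers in the 74 genes and 13.2 in others in WT replicate 1, and 15.1 times in both in WT replicate 2. ATCTT, which matches the AUCUU word known for a MATR3 RNA recognition motif, was found in 14.9% of member clusters in WT replicate 1 and 15.2% in replicate 2, against 14.8% and 16.0% in other genes. TTTCT stood at 13.8 and 15.9 per 1000 against 13.3 and 14.8, TCTTT at 12.7 and 14.8 against 12.5 and 14.7, and GTGGC at 0.507 and 0.414 against 0.519 and 0.462. Words were searched on the transcript strand, overlapping matches included, so that words sharing letters can count the same bases.

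Among the members, each counted over its own clusters, the T share ran from 33.2% (ANKRD11) to 45.6% (MKLN1) in WT replicate 1 and from 33.0% (TBCD) to 47.9% (CNOT2) in WT replicate 2. ANKRD11, with 33.2% and 35.5%, TBCD, a tubulin-folding cofactor, with 35.9% and 33.0%, and ASAP1, an Arf GTPase-activating protein, with 39.5% and 35.9%, had the lowest means. CNOT2 with 44.3% and 47.9%, MKLN1, part of a ubiquitin ligase complex, with 45.6% and 46.4%, and UBE3A with 44.7% and 46.8% had the highest. G made up 19.3% and 16.05% of cluster bases in ANKRD11 and 17.8% and 17.1% in TBCD, against medians of 9.08% and 9.59% over the 74 genes. The part played by the base composition of the introns was not tested, as no genome sequence was used.

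The KO library, in which MATR3 is absent by its label, was not used by the rule. It had 50 clusters in the 74 genes, 45 of them intronic, or 8.33% of its intronic clusters (95% Wilson interval 6.29 to 10.97%). In WT the 74 genes held 7.40% of intronic clusters in replicate 1 and 9.49% in replicate 2, a mean of 8.45 ± 1.48% (SD, n = 2). The KO share lay between the WT shares. By gene, 33 of the 74 had a KO cluster, or 44.6% (33.8 to 55.9%), against 6.53% of all genes with an intronic WT cluster. That share rose with the number of WT clusters per gene, from 2.61% in genes with 1 to 4 intronic clusters in WT replicate 1 to 18.4% in genes with 20 to 49. Other genes with 50 or more, those left out by name included, stood at 27.8% (18.8 to 39.05%). Relative to WT replicate 1, the 74 genes had 8.29 KO intronic clusters per 1000 (exact Poisson interval 6.05 to 11.1), against 4.51 (2.79 to 6.90) in the other genes with 50 or more, 6.82 (5.87 to 7.88) in genes with 20 to 49 and 10.2 (8.08 to 12.6) in genes with 1 to 4. The interval of the 74 genes overlapped all 3 of these, which does not show that the rates are equal. The differences were not tested. Intervals cover counting error only, and 1 KO library gives no replicate spread.

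**Figure D5:**
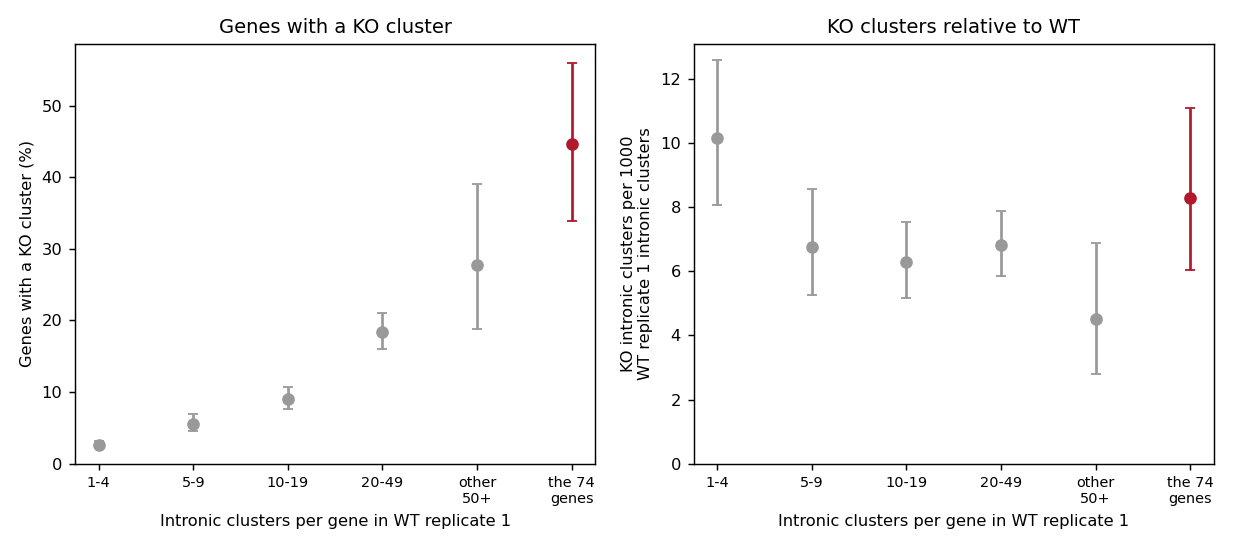
Left, percent of genes with a KO cluster, with 95% Wilson intervals, by intronic clusters per gene in WT replicate 1. Right, KO intronic clusters per 1000 WT replicate 1 intronic clusters in the same classes, with exact Poisson intervals; the 74 genes are in red, at 44.6% on the left and 8.29 on the right.

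DYRK1A had 4 KO clusters, with 1215 reads in all, ADK, ANKRD11 and WWC2 had 3 each, and AUTS2, CCNY, DIAPH2, PARD3, PLEKHA5, POLA1, SMCHD1 and XPO6 had 2. A further 21 genes had 1, among them AKAP13, CACNB2, CAMK2D, DDAH1, DDX10, DIAPH3, DOCK3, E2F3, FOXJ3, GRIK2, MAP4K3, MLLT10, PDE8A, PIAS1, PTK2, TBCD, TEAD1, TTC28, UBE3A and XRCC5. Of the 50 KO clusters, 3 overlapped a WT cluster (6%, 2.06 to 16.2%). The same share over all KO clusters is not given here, so nothing particular to the 74 genes is read from it. In DYRK1A the KO cluster at chr21:37444030-37444061 had 466 reads and met a WT replicate 1 cluster of 76 reads. In WWC2 that at chr4:183273829-183273857 had 543 reads against 6 in WT replicate 1, and in MLLT10 that at chr10:21552702-21552729 had 273 against 62 in WT replicate 2. Since reads per distinct sequence were highest in KO, these read numbers do not compare binding between the genotypes. T made up 37.0% of the bases of KO intronic clusters in the 74 genes and 32.8% in other genes, both below the WT values. TTCTT occurred 6.10 times per 1000 pentamers in the 74 genes in KO, resting on 7 occurrences.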

How the data were processed

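The authors called clusters in each library by itself, and these tables were the starting point. The deposited counts are unnormalised whole numbers per cluster: reads, distinct read sequences, converted positions and T events. The deposited fraction columns are headed as conversion and as reads ending in G (the latter followed the strand and was used in no result), and 2 deposited score columns were not used. The submitters' processing notes name cutadapt 1.8.3, Bowtie 1.1.2, hg38 and GRCh38.p5; caller, filters and annotation release are not given in the sources used here. Each cluster kept the authors' gene and annotation, and clusters of overlapping genes are uncertain.

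Genes were matched to a RefSeq list of GRCh38.p14 for length and position: 72 of 74 by symbol, and RFWD2 (COP1) and SPATA5 (AFG2A) by synonym. All intronic clusters of the 74 genes lay inside these intervals. Clusters overlapped if they shared 1 nt or more of a strand. The members, gene lists and words were chosen with earlier results of these data known. Named genes are those with the most intronic clusters (10), the extremes of density, of the ratio between WT libraries, of overlap and of T share, those with a KO cluster, list members and those nearest the thresholds. Others, such as LRPPRC, TNRC6A, PRRC2B, RERE and GSK3B, were named after their values were seen. One member that these rules name is not reported here. No test was run; intervals are 95% Wilson or exact Poisson. The procedures were tested on simulated data. The software was pandas 2.3.3, scipy 1.17.1, numpy 2.4.6 and matplotlib 3.10.9 under Python 3.11.15.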

Additional observations from a re-analysis of the deposited data

How the results depend on the processing

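The number of genes that meet the rule depended on the clusters counted. It was 44 with at least 10 reads per cluster, all among the 74, 0 with at least 3 converted positions, and 2 with WT replicate 1 limited to the size of WT replicate 2, since each leaves fewer clusters. It ranged from 104 to 134 when either WT library was left out and the other's threshold kept. List genes among the members numbered 11, with 0 at 3 converted positions, 0 at equal size and 14 to 17 without a WT library. With at least 3 converted positions, 14 members had a KO cluster, positional agreement was 24.4% in members and 25.4% in other genes, the median cluster had 48.25 reads, 7.12% of T events were converted, the T share was 43.4% and TTCTT stood at 16.5 per 1000. With equal size, agreement was 13.8% in members and 11.8% in other genes. The median was 41 against 42 reads and conversion 7.34% against 7.56%. Shifting gave an agreement of 4.295% in members and 3.13% in other genes. As the median over clusters, conversion was 8.37% in members and 8.53% in others. For these results the members were kept fixed. Without a WT library the share of intronic clusters in members ranged from 7.40 to 9.49%, density from 9.92 to 25.3 per 100 kb, median reads from 22 to 35, conversion from 7.46 to 7.79%, T share from 41.04 to 42.3% and TTCTT from 13.3 to 15.1 per 1000. No paired analysis was possible because KO has 1 library, so the groups share fewer than 2 replicate numbers. What caused the moves seen with the members kept fixed was not tested.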

Other observations

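CMSS1 stood apart among the 74 genes in where its clusters lay: 85.05% in WT replicate 1 and 91.8% in replicate 2 were inside the RefSeq interval of FILIP1L, a filamin A-interacting protein gene that overlaps it. The RefSeq list used gives no strand, and the assignment of these clusters to either gene was not tested. ANKRD11 had 40% and 40.9% of its clusters inside RefSeq loci without an established name. Over all 74 genes, 2.47% and 2.61% of clusters lay inside another protein-coding gene.

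FOXP1, with 75 intronic clusters in WT replicate 1 and 7 in replicate 2, was picked after its values were seen; its counts differ by far more than the 3.25 of all intronic clusters.

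The deposited share of reads that end in G followed the strand of the gene. In the 74 genes, 76.9% of plus-strand intronic clusters of WT replicate 1 had a value over 0.5, against 1.31% on the minus strand. In WT replicate 2 the shares were 95.9% and 1.31%. The cluster sequences themselves, written along the transcript, ended in G in 69.4% and 83.1% of plus-strand and minus-strand clusters of WT replicate 1, and in 93.3% and 96.4% in WT replicate 2. RNase T1 cuts after G. Over all intronic clusters the column shows the same difference between strands in each of the 3 libraries, and it was used in no result.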
